A study of Homo sapiens with 35 samples.

Results

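The IL6 family genes described here are 9 genes of interleukin 6 signalling: the cytokine genes IL6, IL11 and LIF, the receptor chain genes IL6R, IL6ST and OSMR, the transcription factor gene STAT3, and the inhibitor genes SOCS1 and SOCS3. They were taken by gene symbol from a table of 28503 genes, and all 9 were in it and passed the filter on low counts, among 15867 genes tested. RNA was sequenced from the established human prostate cancer cell line DU145, which was isolated from a metastasis in the brain and grown in a high glucose medium with 10% fetal bovine serum. A short hairpin RNA targeted ZMYND8 (shZMYND8), JARID1D (shJARID1D) or, as the control, luciferase (shLuciferase), with 2 libraries per group and 6 in all. ZMYND8 is a chromatin reader of modified histone tails, and JARID1D, encoded by the Y-linked gene KDM5D, is a demethylase of histone H3 lysine 4. The study asked, by its title, how reading of a histone mark by ZMYND8 bears on genes linked to metastasis. All groups are populations of 1 cell line carrying a hairpin. The labels do not state how many hairpins were used per target.

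Most cytokines of this family signal through receptor complexes that share the chain encoded by IL6ST. IL6 and IL11 first bind their own receptor chain, whereas LIF and oncostatin M bring IL6ST together with LIFR or OSMR. The complexes carry Janus kinases, which phosphorylate STAT3, and STAT3 then enters the nucleus and raises transcription of its targets. SOCS1 and SOCS3 are among these targets and act as feedback inhibitors of the kinases and receptors. The IL6R chain can also be shed from the membrane by proteases such as ADAM17, and the soluble form lets IL6 act on cells that have IL6ST alone. DU145 cells are known as producers of IL6.

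Each library held a deposited total of 22925611 to 25001300 estimated counts, made from 20.7 M to 27.4 M fragments, and a library with no fragment of a gene had, from counting error alone, a limit between 0.109 and 0.145 CPM (counts per 1 M counts of a library). The targets were checked first. ZMYND8 was at 35.5 and 33.2 CPM in shZMYND8 libraries, 69.7 and 63.7 in shJARID1D libraries and 64.7 and 52.7 in shLuciferase libraries. KDM5D was at 19.6 and 17.9 CPM in shJARID1D libraries, 55.5 and 59.9 in shZMYND8 libraries and 58.1 and 61 in shLuciferase libraries. Each target was lowest in the libraries of its own hairpin, with log2 fold changes against shLuciferase of -0.77 ± 0.13 for ZMYND8 (SE, edgeR adjusted p = 0.00491) and -1.67 ± 0.12 for KDM5D (0.000831). The 4 epithelial markers KRT8, KRT18, EPCAM and CDH1 together held 902 and 1008 CPM in shZMYND8 libraries, 607 and 735 in shJARID1D libraries and 936 and 1325 in shLuciferase libraries. They did not move together: against shLuciferase EPCAM fell (log2 fold change -1.68, edgeR adjusted p = 0.000546) and CDH1 rose (1.01, 0.013) in shZMYND8, and KRT8 (-0.86, 0.0465) and KRT18 (-0.67, 0.0349) fell in shJARID1D. The part of these changes in the results below was not tested. KLK2, a marker of luminal prostate cells that DU145 is known to lack, was at 0 in every library. CD3E and DCN, defining markers of T cells and stroma, were also at 0, and the leukocyte marker PTPRC reached at most 0.0429 CPM. The sum of 6 stromal markers was 42.8 and 45.4 CPM in shZMYND8 libraries, 13.9 and 14.7 in shJARID1D libraries and 20.6 and 31.2 in shLuciferase libraries, most of it TAGLN, and LUM reached at most 0.0428 CPM. The sum of 6 leukocyte markers, most of it CD68, was 58.6 and 47.1 CPM in shZMYND8 libraries, 46 and 46.1 in shJARID1D libraries and 36.7 and 42.9 in shLuciferase libraries. Against shLuciferase the stromal marker COL1A1 (log2 fold change 1.65, edgeR adjusted p = 0.026) and the leukocyte marker ITGAM (1.33, 0.0435) rose in shZMYND8. TAGLN fell in shJARID1D (-1.21, edgeR adjusted p = 0.02). The part of these marker changes in the results below was not tested either. The control libraries stood farther apart from each other than the libraries of either knockdown: chi-square per gene between the 2 libraries was 15.5 for shZMYND8, 11.5 for shJARID1D and 34.5 for shLuciferase.

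In shZMYND8 libraries the RNA of 1 of the 3 cytokine genes and of all 3 receptor chain genes was higher than in shLuciferase libraries. IL6 rose the most, 4.26-fold over shLuciferase, followed by IL6R (1.98-fold), IL6ST (1.68-fold) and OSMR (1.49-fold). No difference for IL11, LIF, STAT3, SOCS1 or SOCS3 passed the test. In numbers, 4 of the 9 genes were higher and 0 were lower past an adjusted p of 0.05 in edgeR's quasi-likelihood test (Benjamini-Hochberg over 15867 genes), by which 16.2% of all genes tested were called, 8.89% as higher and 7.34% as lower. Of the 9 genes, 5 had an unadjusted p below 0.05, all higher, against 31.3% of all genes. The median log2 fold change of the 9 genes was 0.58, against -0.01 over all genes tested. In a bulk library a larger share of cells with a transcript and more transcript per cell cannot be told apart.

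The promoters of the 4 genes that rose together are shown so that the letters before their starts can be compared. Each runs from 250 bases before to 50 bases after the transcription start in RefSeq, build GRCh38.p14, on the strand of the gene, 5′ to 3′. IL6 lies at chr7:22726950-22727249 on the plus strand, IL6R at chr1:154405093-154405392 on the plus strand, IL6ST at chr5:55994914-55995213 on the minus strand and OSMR at chr5:38845762-38846061 on the plus strand. Capitals mark matches to the motifs searched.
IL6: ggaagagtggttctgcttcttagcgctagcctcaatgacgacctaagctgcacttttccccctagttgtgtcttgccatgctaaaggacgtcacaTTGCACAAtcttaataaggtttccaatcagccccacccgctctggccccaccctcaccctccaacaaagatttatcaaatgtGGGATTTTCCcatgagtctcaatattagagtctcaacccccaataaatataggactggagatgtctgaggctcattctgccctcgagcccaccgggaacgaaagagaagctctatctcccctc
IL6R: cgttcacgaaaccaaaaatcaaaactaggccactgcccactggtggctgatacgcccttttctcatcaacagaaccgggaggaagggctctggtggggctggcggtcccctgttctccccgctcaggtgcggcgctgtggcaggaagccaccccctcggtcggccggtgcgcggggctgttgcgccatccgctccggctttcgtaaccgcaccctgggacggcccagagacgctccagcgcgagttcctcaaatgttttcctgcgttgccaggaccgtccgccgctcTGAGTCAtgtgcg
IL6ST: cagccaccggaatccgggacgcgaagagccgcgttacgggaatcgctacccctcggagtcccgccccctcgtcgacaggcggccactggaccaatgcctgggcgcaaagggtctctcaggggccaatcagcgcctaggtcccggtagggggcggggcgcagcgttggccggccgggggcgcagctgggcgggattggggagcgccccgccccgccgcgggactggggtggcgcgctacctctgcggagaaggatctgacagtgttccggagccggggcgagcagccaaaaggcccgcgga
OSMR: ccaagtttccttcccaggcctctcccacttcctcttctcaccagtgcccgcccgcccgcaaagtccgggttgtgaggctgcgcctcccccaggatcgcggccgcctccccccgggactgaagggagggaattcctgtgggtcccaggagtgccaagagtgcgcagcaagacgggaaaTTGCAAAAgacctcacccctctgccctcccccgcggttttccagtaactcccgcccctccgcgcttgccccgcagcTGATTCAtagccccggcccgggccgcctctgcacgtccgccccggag
The motifs, searched on both strands, were the NF-kB consensus, AP-1 as TGANTCA, C/EBP as TTGCNNAA, CRE as TGACGNCA, STAT as TTCNNNGAA and the interferon-stimulated response element (ISRE). The IL6 promoter held an NF-kB match at bases -73 to -64 and a C/EBP match at -155 to -148 from the start, whereas IL6R held an AP-1 match at 38 to 44. OSMR held an AP-1 match at 4 to 10 and a C/EBP match at -73 to -66, and IL6ST held no match to the 6 motifs. No match overlapped another. Of 35116 promoters of the same length, 5.91% held an NF-kB match, 7.71% an AP-1 match and 10.5% a C/EBP match. The 4 promoters thus shared no single motif of those searched, and they differed in base composition, with a GC content of 49.3% for IL6, 64% for IL6R, 72.7% for IL6ST and 67.7% for OSMR. Promoters were matched by symbol for 8 of the 9 genes: of the others, IL11 held an AP-1 match, SOCS1 an ISRE match, and STAT3 and SOCS3 none. The shares over all promoters were 3.51% for CRE, 7.66% for STAT and 3.57% for ISRE, and no promoter of the 8 genes held a CRE or STAT match.

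Among the cytokine genes, IL6 had 80.7 and 58.3 CPM in shZMYND8 libraries, 26.7 and 24.6 in shJARID1D libraries and 20.6 and 12 in shLuciferase libraries. Every shZMYND8 library lay above every other library, and the lowest of them was more than 2 times the highest shJARID1D library. The mean was 69.5 ± 15.9 CPM in shZMYND8, 25.6 ± 1.45 in shJARID1D and 16.3 ± 6.06 in shLuciferase (SD, n = 2 each). The log2 fold change of shZMYND8 against shLuciferase was 2.09 ± 0.24 (SE, 95% interval 1.56 to 2.62, edgeR adjusted p = 0.000806). It lay between 1.75 and 2.53 with any 1 of the 6 libraries left out, and each of these fits called it. The control libraries themselves differed 1.71-fold for IL6, with shLuciferase replicate 1 higher.

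IL11, a cytokine with its own receptor chain IL11RA, had 12.7 and 16.7 CPM in shZMYND8 libraries, 6.77 and 7.72 in shJARID1D libraries and 8.81 and 15.5 in shLuciferase libraries. The shZMYND8 and control libraries overlapped, and the control libraries lay on either side of shZMYND8 replicate 1. The log2 fold change against shLuciferase was 0.28 ± 0.25 (SE, interval -0.28 to 0.83, edgeR adjusted p = 0.498). This value depended on single libraries of both groups, most on the controls. It was 0.73 without shLuciferase replicate 2 and -0.08 without shLuciferase replicate 1. Without shZMYND8 replicate 1 it was 0.46, and without shZMYND8 replicate 2 it was 0.06. Over the 10 alternatives other than leaving out a library it ran from 0.26 to 0.32. The adjusted p of edgeR, DESeq2 or limma voom in these ran from 0.222 to 0.616.

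LIF, which acts through LIFR and IL6ST, had 76.8 and 86.5 CPM in shZMYND8 libraries, 74.4 and 77.7 in shJARID1D libraries and 64.9 and 86.6 in shLuciferase libraries. The control libraries held both the lowest and the highest of the 6 values. The log2 fold change of shZMYND8 against shLuciferase was 0.11 (interval -0.22 to 0.44, edgeR adjusted p = 0.669). Of the 3 cytokine genes, IL6 alone passed the test of shZMYND8 against shLuciferase.

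**Figure D1:**
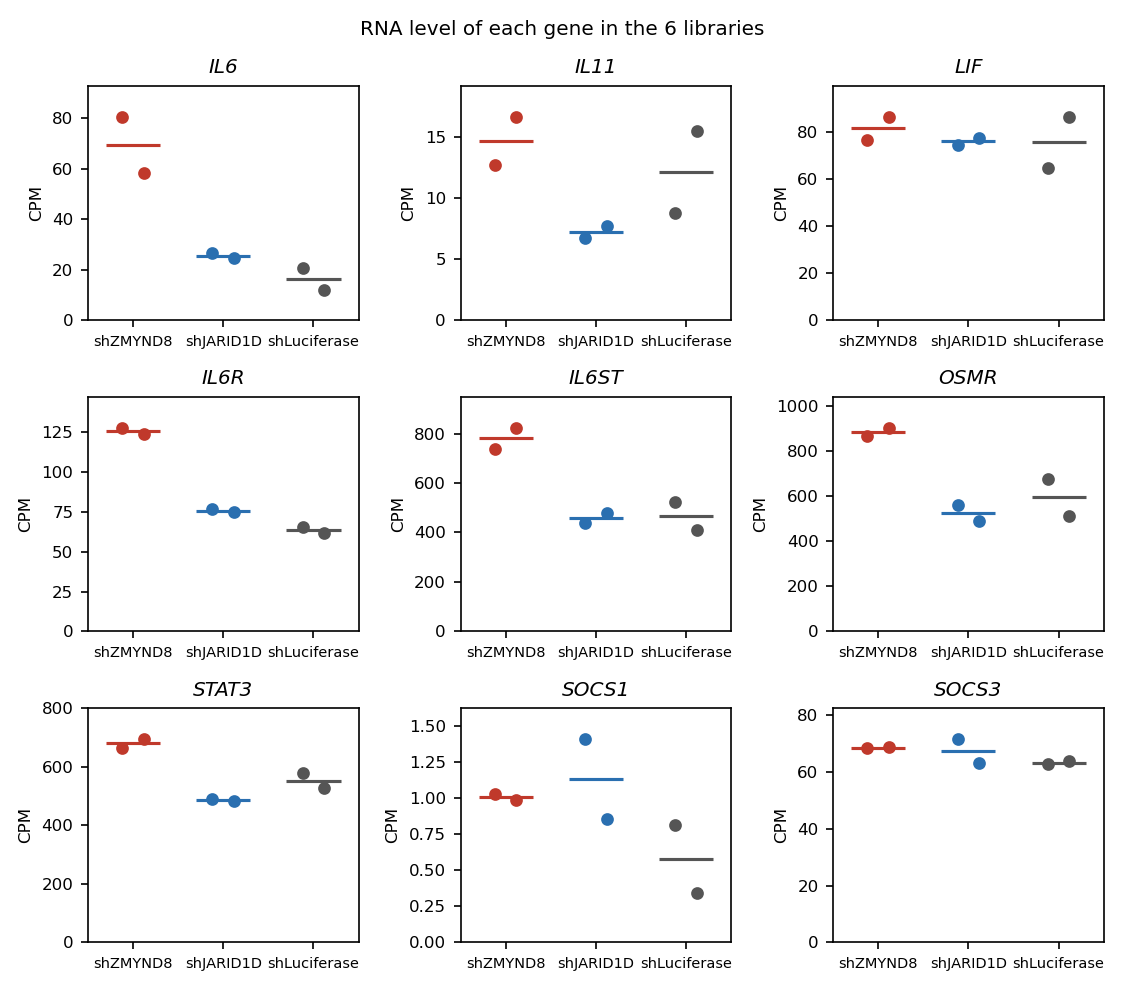
RNA level of the 9 genes in CPM (vertical axes start at 0 and differ between panels), with each point a library and each line the mean of 2 libraries, for shZMYND8, shJARID1D and shLuciferase. For IL6, IL6R, IL6ST, OSMR and STAT3 the shZMYND8 libraries lie above all others, whereas for LIF, at 64.9 and 86.6 CPM, the shLuciferase libraries span the rest.

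IL6R, the chain that binds IL6, had 128 and 124 CPM in shZMYND8 libraries, 76.8 and 74.9 in shJARID1D libraries and 65.4 and 62 in shLuciferase libraries. Replicates lay close together in each group, the 3 groups did not overlap, and the groups stood in the same order as for IL6. The log2 fold change of shZMYND8 against shLuciferase was 0.98 ± 0.11 (SE, interval 0.74 to 1.23, edgeR adjusted p = 0.000755). With any 1 library left out it stayed between 0.94 and 1.02 and was called each time.

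IL6ST, the signalling chain shared by most of the family, had 738 and 824 CPM in shZMYND8 libraries, 438 and 479 in shJARID1D libraries and 523 and 408 in shLuciferase libraries. Both shZMYND8 libraries lay above the rest, and the shJARID1D libraries lay between the controls. Its log2 fold change against shLuciferase was 0.75 ± 0.14 (SE, interval 0.42 to 1.07, edgeR adjusted p = 0.008). The call was lost without shZMYND8 replicate 2 (0.66, edgeR adjusted p = 0.0741), and adjusted p ran from 1.66e-05 to 0.0741 over the alternatives.

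OSMR, the chain that pairs with IL6ST to receive oncostatin M, had 868 and 904 CPM in shZMYND8 libraries, 559 and 490 in shJARID1D libraries and 675 and 513 in shLuciferase libraries. The shZMYND8 libraries were again the highest, and the shJARID1D and control libraries overlapped. The log2 fold change of shZMYND8 against shLuciferase was 0.58 ± 0.15 (SE, interval 0.25 to 0.91, edgeR adjusted p = 0.0276). This was the least stable of the 4 calls. It was lost without shZMYND8 replicate 1 (0.60, edgeR adjusted p = 0.123), without shZMYND8 replicate 2 (0.54, 0.15), without shLuciferase replicate 2 (0.39, 0.0735) and with no filter on low counts (0.56, 0.0633), and adjusted p ran from 0.00218 to 0.15 over the alternatives. In RefSeq OSMR overlaps RICTOR, a subunit gene of a growth kinase complex, and without strand their shared reads cannot be told apart. RICTOR was at 179 and 187 CPM in shZMYND8 libraries, 161 and 152 in shJARID1D libraries and 180 and 136 in shLuciferase libraries, a log2 difference of shZMYND8 from shLuciferase of 0.21 (edgeR adjusted p = 0.363). IL6, LIF and IL6R overlap antisense RNAs in RefSeq, and SOCS1 and SOCS3 overlap other noncoding RNAs. IL6ST and IL6R have pseudogenes with which reads may be shared. The counts of all these genes carry the same limit.

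STAT3, the transcription factor activated by these receptors, had 665 and 697 CPM in shZMYND8 libraries, 491 and 484 in shJARID1D libraries and 579 and 527 in shLuciferase libraries. The groups did not overlap, yet the log2 difference of shZMYND8 from shLuciferase, 0.30 ± 0.11 (SE, interval 0.04 to 0.56), did not pass the test (edgeR unadjusted p = 0.0257, adjusted p = 0.104). These are RNA levels, and phosphorylation of STAT3 was not measured.

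SOCS3, the feedback inhibitor that binds IL6ST, had 68.3 and 68.7 CPM in shZMYND8 libraries, 71.7 and 63.2 in shJARID1D libraries and 62.7 and 63.8 in shLuciferase libraries. The range over all 6 libraries was narrow, and the log2 difference of shZMYND8 from shLuciferase was 0.11 ± 0.11 (SE, interval -0.14 to 0.37, edgeR adjusted p = 0.539). The upper end of this interval lay below the estimates for IL6ST and IL6R. SOCS1, the related inhibitor of Janus kinases, had few reads: 26 and 26 fragments in shZMYND8 libraries, 33 and 17 in shJARID1D libraries and 18 and 8 in shLuciferase libraries. Its levels were 1.03 and 0.988 CPM in shZMYND8 libraries, 1.41 and 0.857 in shJARID1D libraries and 0.809 and 0.343 in shLuciferase libraries. The difference of shZMYND8 from shLuciferase, 0.80 on the log2 scale, had an interval of -0.31 to 1.91 (edgeR adjusted p = 0.308), which held no difference as well as a rise of more than 2-fold. The value was 1.54 without shLuciferase replicate 1 and 0.31 without shLuciferase replicate 2 (edgeR adjusted p = 0.11 and 0.721).

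**Figure D2:**
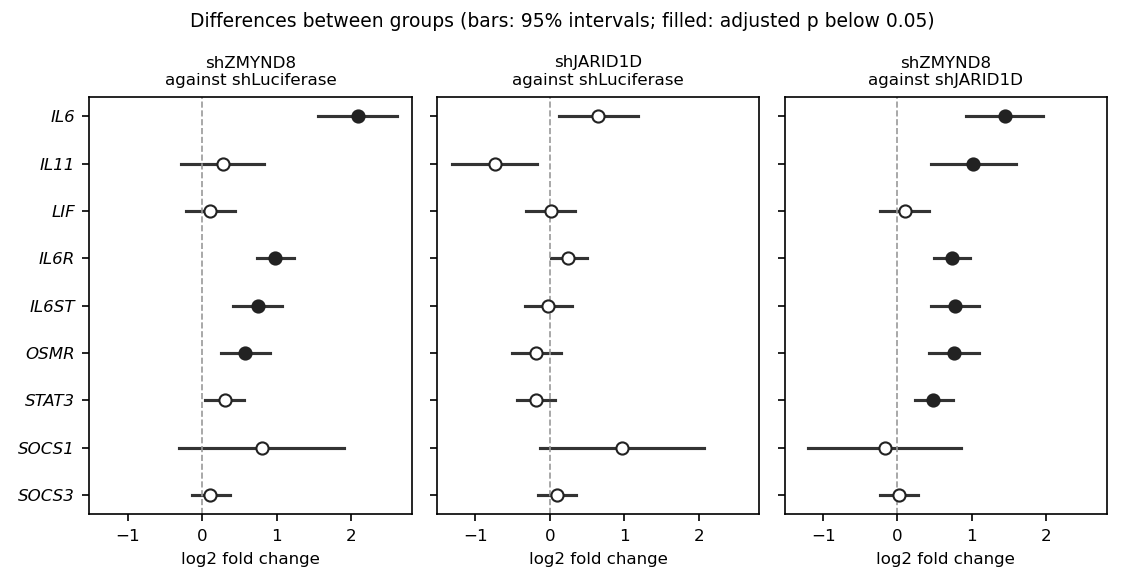
Log2 fold change (horizontal axes, with bars for 95% intervals) of each of the 9 genes in the 3 comparisons, with filled points for an edgeR adjusted p below 0.05. In shZMYND8 against shLuciferase 4 points are filled, in shJARID1D against shLuciferase 0 and in shZMYND8 against shJARID1D 6, all to the right of 0.

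In shJARID1D libraries none of the 9 genes passed the threshold against shLuciferase. The edgeR test called 0 of 9 at an adjusted p of 0.05, DESeq2 and limma voom also called 0, and 5.75% of all genes tested were called by edgeR, 2.96% as higher and 2.79% as lower. At an unadjusted p below 0.05 there were 3 of 9, IL6 and IL6R higher and IL11 lower, against 23.6% of all genes. The median log2 fold change of the 9 genes was 0.01, against 0.00 over all genes.

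For IL6 the shJARID1D libraries lay above both controls, with a log2 difference of 0.65 ± 0.24 (SE, interval 0.12 to 1.18, edgeR adjusted p = 0.134). For IL11 they lay below both controls, with a difference of -0.74 ± 0.26 (interval -1.32 to -0.17, edgeR adjusted p = 0.119). Both differences depended on which control library was used. Without shLuciferase replicate 1 they were 1.09 for IL6 (edgeR adjusted p = 0.00878) and -1.10 for IL11 (0.00802), and both passed. Without shLuciferase replicate 2 they were 0.31 and -0.29, and over the alternatives adjusted p ran from 0.00878 to 0.414 for IL6 and from 0.00802 to 0.456 for IL11.

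Among the receptor chains, IL6R in shJARID1D libraries lay 0.25 ± 0.11 above shLuciferase on the log2 scale (SE, interval 0.01 to 0.50, edgeR adjusted p = 0.2), with no overlap between the libraries. IL6ST differed by -0.02 (interval -0.34 to 0.30, edgeR adjusted p = 0.942) and OSMR by -0.18 (interval -0.51 to 0.15, edgeR adjusted p = 0.506), and the libraries of both genes overlapped with the controls. STAT3 was at 488 ± 4.97 CPM in shJARID1D and 553 ± 37.3 in shLuciferase (SD, n = 2 each), a log2 difference of -0.18 (interval -0.44 to 0.07, edgeR adjusted p = 0.379).

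LIF and SOCS3 lay near 0, at 0.01 (interval -0.32 to 0.34) and 0.09 (interval -0.16 to 0.35) on the log2 scale, with edgeR adjusted p of 0.989 and 0.667. The sign of the LIF value turned to -2.2e-03 with relative log expression factors, and that of IL6ST to 0.06 with library totals as the only scaling. For SOCS1 the difference was 0.97 ± 0.49 (SE, interval -0.13 to 2.07, edgeR adjusted p = 0.266). With so few fragments the interval held no difference as well as a rise of 4-fold, and the value was 1.71 without shLuciferase replicate 1 and 0.48 without shLuciferase replicate 2.

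Set directly against each other, the knockdowns differed in 6 of the 9 genes, all higher in shZMYND8 libraries: IL6, IL11, IL6R, IL6ST, OSMR and STAT3. In this comparison edgeR called 15.7% of all genes tested, 8.67% as higher and 7.02% as lower in shZMYND8, and 32.1% had an unadjusted p below 0.05. The median log2 fold change of the 9 genes was 0.73, against 0.00 over all genes. The 2 comparisons above share the shLuciferase libraries, so it is this comparison that tests whether the knockdowns differed.

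IL6 was 2.71-fold higher in shZMYND8 than in shJARID1D libraries, a log2 fold change of 1.44 ± 0.23 (SE, interval 0.92 to 1.96, edgeR adjusted p = 0.00428). IL6R was 1.66-fold higher (0.73 ± 0.11, interval 0.49 to 0.98, edgeR adjusted p = 0.00315). Both calls held with any 1 library left out, at 1.18 to 1.65 for IL6 and 0.71 to 0.76 for IL6R. Along the groups, IL6 and IL6R were thus highest in shZMYND8, while the difference between shJARID1D and shLuciferase did not pass the test.

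IL6ST was 1.7-fold higher in shZMYND8 than in shJARID1D libraries (log2 fold change 0.77 ± 0.14, edgeR adjusted p = 0.0085) and OSMR 1.69-fold higher (0.76 ± 0.15, 0.0102). STAT3 was 1.4-fold higher (0.48 ± 0.11, interval 0.23 to 0.74, edgeR adjusted p = 0.0223). Leaving out 1 knockdown library ended some of these calls. The IL6ST call was lost without shZMYND8 replicate 2 (0.69, edgeR adjusted p = 0.0798), shJARID1D replicate 1 (0.71, 0.0778) or shJARID1D replicate 2 (0.83, 0.0544). The OSMR call was lost without shZMYND8 replicate 1 (0.78, edgeR adjusted p = 0.0621), shZMYND8 replicate 2 (0.73, 0.0795) or shJARID1D replicate 2 (0.66, 0.104). The STAT3 call was lost without any 1 of the 4 knockdown libraries, at 0.51 (edgeR adjusted p = 0.103) and 0.45 (0.151) without shZMYND8 replicates 1 and 2, and at 0.50 (0.131) and 0.46 (0.16) without shJARID1D replicates 1 and 2. Over the alternatives adjusted p ran from 7.05e-06 to 0.0798 for IL6ST, from 2.04e-05 to 0.104 for OSMR and from 0.000902 to 0.16 for STAT3.

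IL11 averaged 14.7 ± 2.84 CPM in shZMYND8 and 7.24 ± 0.669 in shJARID1D (SD, n = 2 each), with 12.1 ± 4.7 in shLuciferase. It was 2.03-fold higher in shZMYND8 than in shJARID1D libraries (log2 fold change 1.02 ± 0.26, interval 0.45 to 1.59, edgeR adjusted p = 0.0268). The control mean lay between those of the knockdowns, and neither knockdown passed the test against it. The call was lost without shZMYND8 replicate 1 (1.20, edgeR adjusted p = 0.0665) or replicate 2 (0.81, 0.191). It was also lost without shJARID1D replicate 1 (0.93, edgeR adjusted p = 0.139) or replicate 2 (1.11, 0.0955) and with no filter on low counts (1.01, 0.0668), and adjusted p ran from 0.00211 to 0.191. LIF differed by 0.10 (interval -0.23 to 0.43, edgeR adjusted p = 0.679) and SOCS3 by 0.02 (interval -0.23 to 0.28, edgeR adjusted p = 0.917), the second turning to -0.03 with library totals as the only scaling. SOCS1 differed by -0.17 with a wide interval of -1.20 to 0.86 (edgeR adjusted p = 0.836).

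**Figure D3:**
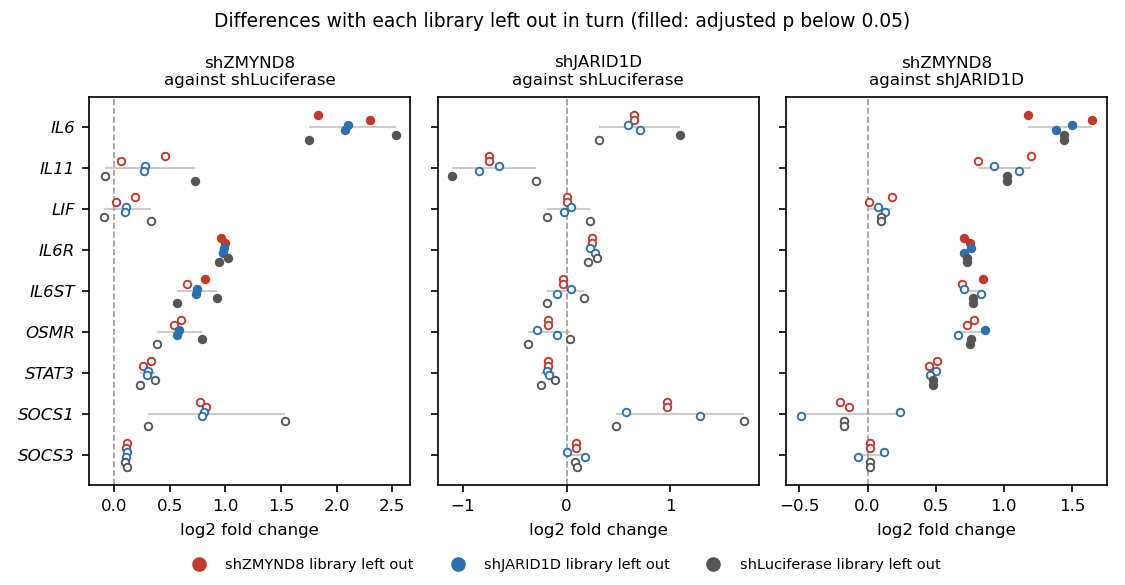
Log2 fold change of each of the 9 genes (horizontal axes) when 1 of the 6 libraries is left out, with the point coloured by the group of that library and filled where the edgeR adjusted p is below 0.05. IL6 and IL6R are filled in every fit of shZMYND8 against either other group, and the IL11 points without a shLuciferase library, at -0.08 and 0.73 in shZMYND8 against shLuciferase, lie on either side of 0.

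The rest of the pathway was described by 72 further genes in 6 lists, of which 61 were tested. Like the 9 genes, the lists were chosen with earlier results of these data known. Their shares called, set beside those of all genes here and below, are therefore descriptions and no test of the lists. In shZMYND8 against shLuciferase 11 rose, 4 fell and 46 did not pass, in shJARID1D 5 rose, 1 fell and 55 did not pass, and between the knockdowns 8 were higher in shZMYND8, 6 lower and 47 did not pass. The median log2 fold changes of the 61 genes were 0.03, 0.15 and 0.03. The shares called as higher were 18%, 8.2% and 13.1%, against 8.89%, 2.96% and 8.67% of all genes tested. The shares called as lower were 6.56%, 1.64% and 9.84%, against 7.34%, 2.79% and 7.02% of all genes tested. With library totals as the only scaling 13 pathway genes rose and 1 fell in shZMYND8 against shLuciferase. The plot by list shows the values of each gene against shLuciferase.

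**Figure D4:**
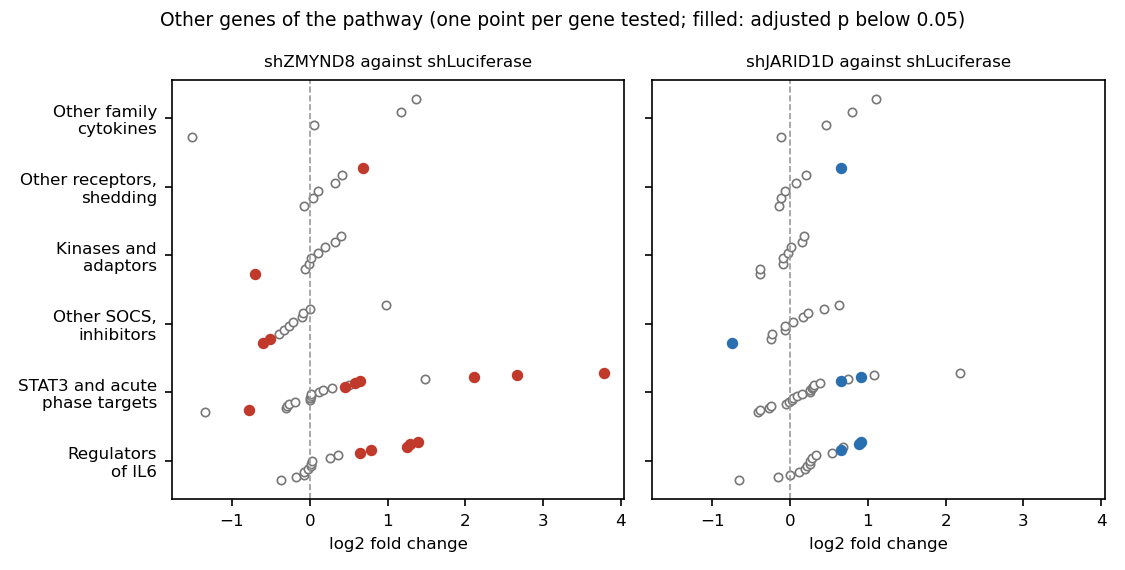
Log2 fold change (horizontal axes) of the 61 tested pathway genes by list, 1 point per gene, in shZMYND8 against shLuciferase and in shJARID1D against shLuciferase, with filled points for an edgeR adjusted p below 0.05. In shZMYND8 the points filled on the right are 6 of 21 STAT3 and acute phase targets, 5 of 15 regulators of IL6 (CEBPB is in both lists) and 1 of 6 other receptors and shedding proteases.

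Of 15 regulators of IL6 transcription and mRNA decay, 5 rose and 0 fell in shZMYND8 against shLuciferase: IRF1, ATF3, NFKBIZ, ZC3H12A and CEBPB. These were 33.3% of the list, against 8.89% of all genes tested called as higher and 7.34% as lower. IRF1, an interferon-induced transcription factor, had 123 and 98.6 CPM in shZMYND8 libraries, 75.2 and 71.2 in shJARID1D libraries and 49.6 and 43.6 in shLuciferase libraries. NFKBIZ, an NF-kB cofactor that acts on IL6, had 43 and 32.9 CPM in shZMYND8 libraries, 22.6 and 24 in shJARID1D libraries and 17 and 12 in shLuciferase libraries. Both genes stood in 3 groups that did not overlap, with shZMYND8 at the top and shLuciferase at the bottom.

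ATF3, a stress-induced factor that in mice is known as a repressor of Il6, had 30.4 and 26.3 CPM in shZMYND8 libraries, 22.8 and 19.7 in shJARID1D libraries and 11.1 and 12 in shLuciferase libraries. ZC3H12A, a ribonuclease that degrades IL6 mRNA, had 38.4 and 34.3 CPM in shZMYND8 libraries, 27.8 and 33.2 in shJARID1D libraries and 19.2 and 22.9 in shLuciferase libraries. The members that rose thus included both genes known to raise IL6 and genes known to lower it. Log2 fold changes of shZMYND8 against shLuciferase were 1.25 ± 0.14 for IRF1, 1.39 ± 0.19 for NFKBIZ, 1.29 ± 0.14 for ATF3 and 0.79 ± 0.15 for ZC3H12A (SE), with edgeR adjusted p of 0.000755, 0.00159, 0.00076 and 0.0067. The first 3 were called with any 1 library left out, and ZC3H12A was lost without shZMYND8 replicate 1 (edgeR adjusted p = 0.0779, with a range of 0.00333 to 0.0779 over libraries left out).

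In shJARID1D against shLuciferase 3 of these 15 regulators rose, with log2 fold changes of 0.88 for ATF3 (edgeR adjusted p = 0.0148), 0.91 for FOS (0.0235) and 0.65 for IRF1 (0.0297). These were 20% of the list, against 2.96% of all genes tested called as higher. Between the knockdowns IRF1 was higher by 0.60 (edgeR adjusted p = 0.0188) and NFKBIZ by 0.70 (0.0301) in shZMYND8, while FOS, a subunit of AP-1, was lower (-0.89, 0.0115). As shares of the list these calls were 13.3% higher and 6.67% lower, against 8.67% and 7.02% of all genes tested. Without at least 1 of the knockdown libraries these calls were lost, with adjusted p of up to 0.174 for IRF1 and 0.228 for NFKBIZ without shZMYND8 replicate 1 and up to 0.118 for FOS without shZMYND8 replicate 2. FOS had 36.7 and 28.5 CPM in shZMYND8 libraries, 70.8 and 50.1 in shJARID1D libraries and 33.2 and 31 in shLuciferase libraries, so that the shJARID1D libraries stood above the rest. None of the 6 pathway genes called in shJARID1D against shLuciferase was called with every library left out in turn: ATF3, FOS and IRF1 were each lost without shJARID1D replicate 1 (edgeR adjusted p = 0.131, 0.189 and 0.2) and without shJARID1D replicate 2 (0.0649, 0.0529 and 0.122). The lowest adjusted p with a library left out was 0.0113 for ATF3, 0.0171 for FOS and 0.0117 for IRF1.

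Of 21 STAT3 and acute phase targets tested, 6 rose and 1 fell in shZMYND8 against shLuciferase, that is 28.6% and 4.76%, against 8.89% and 7.34% of all genes tested. LCN2, which encodes a secreted iron-binding acute phase protein, had 9.13 and 5.8 CPM in shZMYND8 libraries, 2.19 and 2.1 in shJARID1D libraries and 1.75 and 1.71 in shLuciferase libraries, a log2 fold change of 2.11 ± 0.28 (SE, edgeR adjusted p = 0.00141). ICAM1, an adhesion molecule for leukocytes, had 585 and 589 CPM in shZMYND8 libraries, 388 and 413 in shJARID1D libraries and 399 and 389 in shLuciferase libraries, a change of 0.58 ± 0.11 (edgeR adjusted p = 0.00814). LCN2 kept its call with any 1 library left out, whereas ICAM1 lost it without shZMYND8 replicate 1 (edgeR adjusted p = 0.0721) or replicate 2 (0.0642), with 0.0103 as the lowest value.

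The serum amyloid A genes SAA1 and SAA2 rested on few fragments and are near copies of each other, so their split is uncertain. SAA1 had 35 and 30 fragments in shZMYND8 libraries, 7 and 10 in shJARID1D libraries and 0 and 4 in shLuciferase libraries (edgeR adjusted p = 0.00964 for shZMYND8 against shLuciferase). SAA2 had 30 and 13 fragments in shZMYND8 libraries, 3 and 2 in shJARID1D libraries and 3 and 3 in shLuciferase libraries (edgeR adjusted p = 0.0275). IL4R, a receptor chain for interleukin 4, and CEBPB, a transcription factor of the acute phase response, also rose, with log2 fold changes of 0.45 (edgeR adjusted p = 0.0281) and 0.65 (0.0441). MUC1, a membrane mucin, was the gene that fell: it had 5.44 and 5.15 CPM in shZMYND8 libraries, 15.8 and 14.9 in shJARID1D libraries and 11.2 and 7.07 in shLuciferase libraries (log2 fold change of shZMYND8 against shLuciferase -0.78, edgeR adjusted p = 0.0387). None of these 5 calls held with every library left out. Without shZMYND8 replicate 1 the edgeR adjusted p was 0.0809 for SAA1, 0.299 for SAA2, 0.172 for IL4R, 0.363 for CEBPB and 0.166 for MUC1. Without shZMYND8 replicate 2 it was 0.153 for IL4R and 0.189 for MUC1, and without a single control library it reached 0.0793 for SAA2, 0.115 for CEBPB and 0.145 for MUC1. Without a single shJARID1D library, which changes the shared spread, it reached 0.0608 for IL4R, 0.0528 for CEBPB and 0.0603 for MUC1.

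In shJARID1D against shLuciferase 2 of the 21 targets rose, FOS and JUNB (0.66, edgeR adjusted p = 0.0488), and none fell. These were 9.52% of the list, against 2.96% of all genes tested called as higher. Between the knockdowns 3 were higher in shZMYND8, LCN2 (1.80, edgeR adjusted p = 0.00333), ICAM1 (0.55, 0.0112) and SAA2 (edgeR adjusted p = 0.024), and 3 were lower, MUC1 (-1.54, 0.00255), FOS and the kinase gene PIM1 (-0.46, 0.0387). That is 14.3% of the list in each direction, against 8.67% of all genes tested called as higher and 7.02% as lower. Against shLuciferase the listed targets thus included genes that rose, such as LCN2 in shZMYND8 and FOS and JUNB in shJARID1D. Others, such as PIM1, did not pass in either knockdown, nor did the member SOCS3. Whether the activity of STAT3 differed was not tested. Calls of MUC1 and LCN2 between the knockdowns held with any 1 library left out. ICAM1 and PIM1 lost theirs without any 1 of the 4 knockdown libraries (edgeR adjusted p up to 0.113 and 0.319, both without shJARID1D replicate 1). SAA2 lost its call when shZMYND8 replicate 1 (0.233), shJARID1D replicate 1 (0.111) or shJARID1D replicate 2 (0.151) was left out, and JUNB with any library left out except shLuciferase replicate 1 (up to 0.338 without shJARID1D replicate 1).

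Of the 10 other inhibitors tested, 0 rose and 2 fell in shZMYND8 against shLuciferase, both of the SOCS family. That is 20% called as lower, against 7.34% of all genes tested, in a list of so few genes that 1 call makes 10%. SOCS6 had 29.1 and 26.7 CPM in shZMYND8 libraries, 39.4 and 41.5 in shJARID1D libraries and 45.1 and 39.5 in shLuciferase libraries. SOCS2, an inhibitor of growth hormone signalling, had 26.9 and 25.1 CPM in shZMYND8 libraries, 47.3 and 39.4 in shJARID1D libraries and 39 and 34.8 in shLuciferase libraries. The shZMYND8 libraries were the lowest for both genes, with log2 fold changes against shLuciferase of -0.60 ± 0.13 (SE, edgeR adjusted p = 0.0112) and -0.51 ± 0.14 (0.0322). SOCS6 lost its call without either shZMYND8 library (edgeR adjusted p = 0.0735 and 0.112), and SOCS2 without shZMYND8 replicate 1 (0.14) or 2 (0.199), shJARID1D replicate 1 (0.051) or shLuciferase replicate 1 (0.0596). The lowest values were 0.00411 for SOCS6 and 0.0165 for SOCS2.

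In shJARID1D against shLuciferase PTPN1, a tyrosine phosphatase that acts on Janus kinases, was the inhibitor that passed, with 130 and 127 CPM in shJARID1D libraries, 176 and 179 in shZMYND8 libraries and 238 and 190 in shLuciferase libraries. In a list of 10, PTPN1 made 10% called as lower, against 2.79% of all genes tested. Its log2 fold change was -0.74 (edgeR adjusted p = 0.0174), a call lost without shJARID1D replicate 1 (0.143) or 2 (0.118), with 0.00364 as the lowest value. Between the knockdowns SOCS2 (-0.74, edgeR adjusted p = 0.00789), SOCS6 (-0.54, 0.0209) and the phosphatase gene PTPN6 (-0.53, 0.0225) were lower in shZMYND8 and PTPN1 was higher (0.47, 0.0394). As shares of the list these were 30% lower and 10% higher, against 7.02% and 8.67% of all genes tested. SOCS2 lost this call without either shZMYND8 library (edgeR adjusted p = 0.0583 and 0.0857) or shJARID1D replicate 1 (0.0857). SOCS6, PTPN6 and PTPN1 lost it without any 1 of the 4 knockdown libraries, with adjusted p of up to 0.168, 0.182 and 0.219.

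Among 6 further receptor chains and shedding proteases tested, ADAM17 rose in both knockdowns. In this short list ADAM17 made 16.7% called as higher in each knockdown. Of all genes tested 8.89% were called as higher in shZMYND8 and 2.96% in shJARID1D. ADAM17 was the only gene of the list called against shLuciferase. It had 315 and 318 CPM in shZMYND8 libraries, 295 and 319 in shJARID1D libraries and 215 and 176 in shLuciferase libraries. Every knockdown library lay above both controls, with log2 fold changes of 0.69 ± 0.13 (SE, edgeR adjusted p = 0.00684) in shZMYND8 and 0.65 ± 0.13 (0.0236) in shJARID1D. The first call was lost without shZMYND8 replicate 1 (edgeR adjusted p = 0.0611) or 2 (0.0529), and the second without shZMYND8 replicate 1 (0.0525) or 2 (0.0557) or shJARID1D replicate 1 (0.135) or 2 (0.154), with lowest values of 0.00212 and 0.00608. ADAM10, the related protease, was higher in shZMYND8 than in shJARID1D libraries (0.53 ± 0.13, edgeR adjusted p = 0.0241). That is 16.7% of the list, against 8.67% of all genes tested called as higher in this comparison. Of 8 kinases and adaptors, the adaptor gene GAB2 fell in shZMYND8 against shLuciferase (-0.70, edgeR adjusted p = 0.0466), none passed in shJARID1D (edgeR, with 1 at an unadjusted p below 0.05), and SHC1 was higher in shZMYND8 than in shJARID1D (0.41, edgeR adjusted p = 0.0406). GAB2 made 12.5% of the list called as lower, against 7.34% of all genes tested. SHC1 made 12.5% called as higher, against 8.67% of all genes tested. GAB2 lost its call without any 1 shZMYND8 or shLuciferase library (edgeR adjusted p up to 0.27), and ADAM10 and SHC1 lost theirs without any 1 of the 4 knockdown libraries (up to 0.181 and 0.233). Of 8 other cytokine genes of the family 4 were tested and none passed in any comparison (edgeR). EBI3, a subunit of interleukin 27, had an unadjusted p below 0.05 in shZMYND8 against shLuciferase (1.36, edgeR adjusted p = 0.105), while OSM, CTF1, IL27 and IL31 had too few counts to be tested.

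The genes nearest to each cytokine gene over the 6 libraries were sought among 11477 tested genes that averaged 5 CPM or more. Likeness was the Euclidean distance between log2 CPM profiles, each centred on its own mean. For IL6 the nearest were TLR3 (distance 0.23), RARRES3 (0.29), ASS1 (0.32) and NR4A2 (0.32). TLR3, nearest of all, had 20.8 and 12.3 CPM in shZMYND8 libraries, 6.51 and 6.26 in shJARID1D libraries and 4.9 and 2.74 in shLuciferase libraries. For IL11 they were SPNS2 (0.24), SRM (0.31), SCARF2 (0.31) and CDC42EP1 (0.33), and for LIF ZNF526 (0.07), TRIM65 (0.09), SNX33 (0.10) and PPP2R1A (0.11). LIF itself varied least of the 3, and its distances were the smallest. With 6 libraries in 3 groups, such likeness describes these profiles and rests on the differences between groups and between the libraries of a group.

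**Figure D5:**
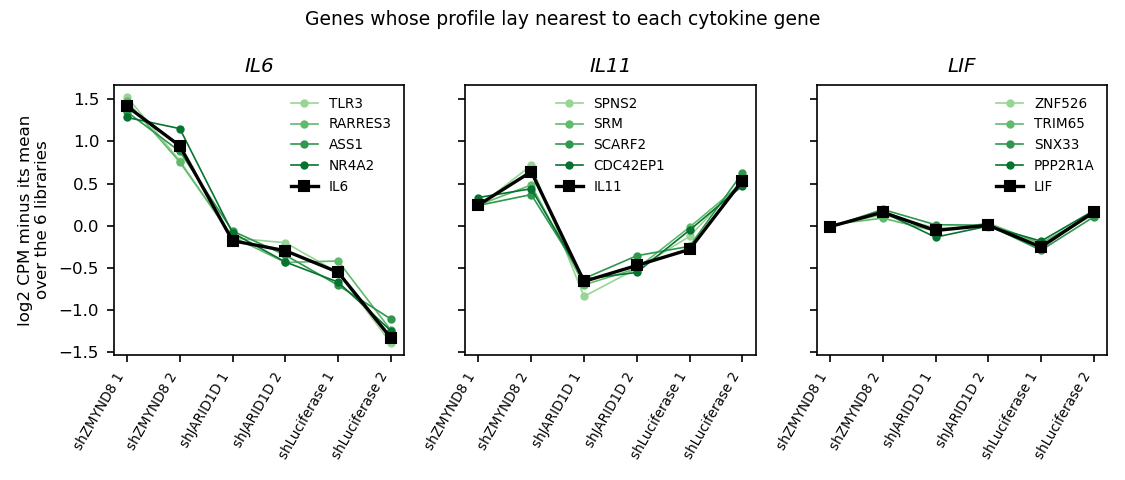
Log2 CPM minus the mean over the 6 libraries (vertical axis) for IL6, IL11 and LIF in black and the 4 genes nearest to each in green, by library (horizontal axis). The IL6 profile and its neighbours are highest in the shZMYND8 libraries and lowest in shLuciferase replicate 2, whereas IL11 and its neighbours are lowest in the shJARID1D libraries.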

How the data were processed

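Of 35 samples in the series, the 6 RNA-seq libraries were used; the 29 others (chromatin immunoprecipitation and input) were not analysed here. Groups follow the labels. Columns headed Rac7_KO were read as shZMYND8, which assumes that Rac7 means RACK7, a name that an antibody label of the series gives to ZMYND8. The deposited values are expected counts: fragments per gene as estimated by the authors. Tools named in the submitters' processing notes are Bowtie 1.1.2, TopHat2 2.0.12, Cuffdiff and edgeR 3.12.0, with hg19 as the human build. Per the labels' protocols, libraries were made from total RNA by Illumina's standard method. Neither strandedness, nor selection of polyadenylated RNA, nor the gene annotation is stated there. The authors' values carry a scaling in which 1 fragment is worth 0.881 to 1.16, depending on the library. Divided by it, 84% to 84.9% of values under 1000 fragments were whole within 0.05. The labels do not say that libraries come from separate cultures, and p-values therefore cover no more than the spread among these libraries, part or all of which may be technical.

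Genes marked as not quantified in at least 1 library (60, of them 13 in every library) were left out, 10 genes marked as failed were kept, and 18 variance columns were not used. Rounded counts were tested with edgeR 4.0.16 (R 4.3.3) by its quasi-likelihood F test, with trimmed-mean (TMM) factors (0.966 to 1.057), filterByExpr on the group and Benjamini-Hochberg adjustment over 15867 of 28443 genes at a threshold of 0.05. The spread was estimated from the 6 libraries together (residual degrees of freedom 3, biological coefficient of variation 12.3%). CPM values use these factors, and SDs are over 2 libraries. Intervals are 95% intervals of log2 fold changes. The limit for a gene without fragments is 3 fragments and covers counting error only.

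Alternatives were relative log expression factors, library totals only, no filter, a minimum mean count of 50, DESeq2 1.42.0, limma 3.58.1 (voom), fits restricted to the groups compared, a replicate block, each library left out, the deposited scaling undone and unquantified genes kept. The members, the 6 pathway lists and the tests were chosen with earlier results of these data known. Named genes were the 9 members, both targets, for each list and comparison up to 4 genes called with the smallest adjusted p, and the 4 nearest profiles per cytokine gene. IL4R, CEBPB and PIM1 are also named where they complete a count, after their values were seen. The same holds for MUC1 and SAA2 in comparisons other than the one in which this rule named them. EBI3 and single markers of other cell types were likewise named after their values were seen. Levels were not compared between genes, since no gene lengths were used. The scripts were tested on simulated counts. Promoters are RefSeq sequences of build GRCh38.p14 and were not placed on hg19. Tables and figures were made with Python 3.11.15, numpy 2.4.6, pandas 2.3.3, scipy 1.17.1 and matplotlib 3.10.9.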

Additional observations from a re-analysis of the deposited data

How the results depend on the processing

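IL6 and IL6R kept their calls in shZMYND8 against each other group under all 16 alternatives. Of the values of single genes under alternatives, 390 kept direction and side of the threshold, 20 lost the threshold, 6 gained it and 13 turned direction. With 2 libraries a group the counts of calls moved most, and the cause was not tested. Leaving out 1 library gave 642 to 3222 genes (2574 with all libraries) in shZMYND8 against shLuciferase, 16 to 2145 (912) in shJARID1D against shLuciferase and 551 to 4191 (2490) between the knockdowns. For the 9 members it gave 2 to 4 (4), 0 to 2 (0) and 2 to 6 (6), and for the pathway genes 4 to 16 (15), 0 to 9 (6) and 2 to 23 (14). With no filter, pathway calls were 9, 1 and 8, and gene calls were 204 in shJARID1D against shLuciferase and 1560 between the knockdowns. A fit of only the groups compared gave 449 and 4252 genes in these comparisons and 23 pathway genes between the knockdowns. In shJARID1D against shLuciferase DESeq2 gave 12 pathway genes and library totals as the only scaling 10. That scaling gave 709 higher and 294 lower genes in shJARID1D against shLuciferase, in place of 469 and 443, and 1140 and 1392 between the knockdowns, in place of 1376 and 1114. It moved the median of all genes by at most 0.09.

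Values that turned direction were small. With 1 library left out, IL11 in shZMYND8 against shLuciferase ran from -0.08 to 0.73 and LIF from -0.09 to 0.33, both lowest without shLuciferase replicate 1. In shJARID1D against shLuciferase they were LIF (-2.2e-03 with relative log expression factors and with DESeq2, -0.02 without shJARID1D replicate 2, and from -0.19 without shLuciferase replicate 1 to 0.23 without replicate 2), IL6ST (0.06 with library totals, 0.04 without shJARID1D replicate 1, and from -0.19 to 0.17 with 1 library left out) and OSMR (-0.37 to 0.03 with 1 library left out). Between the knockdowns they were SOCS1 (-0.49 to 0.24 with 1 library left out) and SOCS3 (-0.03 with library totals, and -0.07 to 0.12 with 1 library left out). At a mean count of at least 50 SOCS1 was not tested.

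The libraries share replicate numbers that the labels do not explain. The deviations of same-numbered libraries correlated at 0.10, 0.09 and 0.17 over genes, so the numbers were not taken as pairs. A replicate block gave 2073 genes, 2 members (IL6 at 0.69, edgeR adjusted p = 0.0141, and IL11 at -0.71, 0.023) and 15 pathway genes in shJARID1D against shLuciferase, 3785 genes between the knockdowns, and STAT3 past the threshold in shZMYND8 against shLuciferase (0.30, 0.0499).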

Other observations

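Other receptor chains of the family, and JAK1, had no call in any of the 3 comparisons. They were picked out after their values were seen, and their difference from IL6R, IL6ST and OSMR was not tested. LIFR, which receives LIF, had 154 and 188 CPM in shZMYND8 libraries, 158 and 168 in shJARID1D libraries and 195 and 165 in shLuciferase libraries. Its log2 difference was -0.07 (95% interval -0.38 to 0.23) in shZMYND8 and -0.14 (-0.45 to 0.16) in shJARID1D against shLuciferase. IL11RA, which receives IL11, had 18.9 and 14.2 CPM in shZMYND8 libraries, 17.6 and 17.5 in shJARID1D libraries and 14.2 and 16.3 in shLuciferase libraries, with differences of 0.11 (-0.25 to 0.48) and 0.20 (-0.17 to 0.56). IL31RA, the partner of OSMR in the receptor for interleukin 31, had 38.9 and 46.7 CPM in shZMYND8 libraries, 32 and 32.6 in shJARID1D libraries and 32.9 and 35 in shLuciferase libraries. The shZMYND8 libraries lay above all others, with a difference of 0.33 (0.05 to 0.62) from shLuciferase that did not pass (edgeR adjusted p = 0.107). IL27RA, which pairs with IL6ST to receive interleukin 27, had 160 and 157 CPM in shZMYND8 libraries, 160 and 165 in shJARID1D libraries and 139 and 169 in shLuciferase libraries.

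JAK1, the main kinase on IL6ST, differed by -0.01 (-0.28 to 0.26) in shZMYND8 and by -0.39 (-0.66 to -0.12) in shJARID1D against shLuciferase, and the second did not pass (edgeR adjusted p = 0.0863).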
